A study of Talinum fruticosum with 36 samples.

Results

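Midnight leaves from plants left dry for 9 days were set against midnight leaves of the same species before drying began. Talinum triangulare (listed as Talinum fruticosum) is a herb that fixes carbon by day when watered and takes up crassulacean acid metabolism (CAM) under drought. The comparison uses 6 libraries, 3 biological replicates of day 9 and 3 of day 0, chosen by their sample titles from 36 in the series, of which 30 were read in single-end mode. The day 9 group came from plants that had been watered for 28 days and then kept dry for 9 days, and its labels give CAM as the photosynthetic mode. The day 0 group came from plants at the end of those 28 days, with 0 days of drought. Both groups are mature leaf, both were taken 6 h into the dark phase, and no genotype other than the species is given. Plants of the same age that had been watered throughout are not analysed here, so drought, plant age and sampling day cannot be told apart.

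In CAM, stomata open at night and phosphoenolpyruvate carboxylase (PEPC) fixes carbon dioxide into acids that are kept as malate in the vacuole. By day the malate is released and decarboxylated behind closed stomata, and the carbon dioxide is fixed again by Rubisco. The PEP used at night comes from starch or sugars through glycolysis, and PEPC is activated at night by a dedicated kinase. Drought is also known to raise abscisic acid, which closes stomata and switches on protective genes, and to slow leaf growth.

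The 6 libraries held between 5829721 and 7841559 read counts assigned to Arabidopsis loci, since each read had been given to its best protein match in that species. Levels are CPM (counts scaled to a common library size) after TMM scaling, with scaling factors between 1.03 and 1.334. A count of 3, the smallest taken as more than background, stood for 0.383 to 0.515 CPM before scaling. Correlations between libraries of a group lay between 0.962 and 0.989 (Pearson's r of log2 CPM across loci), and replicate 3 of day 0 had the lowest mean, at 0.963. Because reads were assigned by protein similarity, close relatives in a gene family can divide or share reads, and the values of such loci are uncertain one by one. The RNA is from whole leaf, in which fewer cells of a type and less RNA per cell cannot be told apart.

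At midnight 6833 of 14052 loci tested, or 48.6%, differed between day 9 and day 0 at an adjusted p under 0.05, the Benjamini-Hochberg value of the quasi-likelihood test of edgeR. A locus is called changed by that rule throughout. Of these, 3261 loci (23.2% of those tested) were higher and 3572 (25.4%) were lower on day 9. The larger changes lay mostly downwards. By at least 1 on the log2 scale, 1062 loci rose and 2036 fell, and by at least 3 on that scale 65 rose and 331 fell. The median log2 fold change over all loci was 0.01. In 7535 loci (53.6%) the 3 libraries of one group all lay beyond the 3 of the other, with day 9 above in 3717 (26.5%) and below in 3818 (27.2%). For the same pair of groups the authors' deposited table has 5191 loci with a q-value under 0.01, of which 2213 are higher on day 9.

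The 12 largest increases include PPC1 and PPC2, described further on with the other CAM genes, and 10 loci given here. A terpenoid cyclase locus, AT3G29410, had 15.2, 20.1 and 22.4 CPM on day 9, against 0.111, 0 and 0.231 CPM on day 0. This was 472 counts over the 3 day 9 libraries and 3 counts over the 3 day 0 libraries, a ratio of 158 with an exact 95% counting interval of 53.8 to 769.9, which covers counting error only. AT1G18100, a member of the PEBP family that includes the flowering regulator FT, reached 52.2, 57.9 and 43.8 CPM, against 1.23, 0.427 and 0.115 CPM on day 0 (log2 fold change 6.36, SE 0.58, adjusted p = 3.6e-09). The rule for naming the largest changes required all day 9 libraries to lie beyond all day 0 libraries. For AT1G18100 the log2 fold change was 7.48 without replicate 1 of day 0.

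The next loci in this class carry no description in the files, so that only their levels can be given. AT5G40790 had 37.6, 43.6 and 27.00 CPM on day 9 and 0.891, 0.285 and 0.115 CPM on day 0. AT3G48510 had 63.6, 82.2 and 51.6 CPM on day 9 and 1.78, 0.427 and 0.577 CPM on day 0, and AT3G27250 had 48.3, 47.2 and 31.03 CPM on day 9 and 1.45, 0.712 and 0.231 CPM on day 0. Their log2 fold changes were 6.28, 6.06 and 5.67, and without replicate 1 of day 0, which held most of the few reads, they were 7.36, 6.90 and 6.43. AT3G03170, also without a description, changed by 4.55 on that scale, by 3.97 without replicate 1 and by 5.17 without replicate 2 of day 0.

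Loci with a known kind of product were among the largest increases as well. AT1G28480, a thioredoxin-superfamily protein, had 13.4, 21.05 and 12.2 CPM in day 9 leaves and 0.446, 0.427 and 0.346 CPM in day 0 leaves. The locus AT5G56550, described as oxidative stress 3, had 55.7, 94.8 and 59.1 CPM on day 9 and 3.56, 4.41 and 2.54 CPM on day 0 (log2 fold change 4.32, SE 0.45, adjusted p = 3.9e-08). SEED IMBIBITION 1 (AT1G55740), of the family that breaks down raffinose-type sugars, had 590.0, 981 and 626 CPM on day 9 and 45.2, 38.6 and 29.2 CPM on day 0. Its log2 fold change was 4.28. AT2G44670 codes for a protein of unknown function with a DUF581 domain and changed by 4.79.

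**Figure D1:**
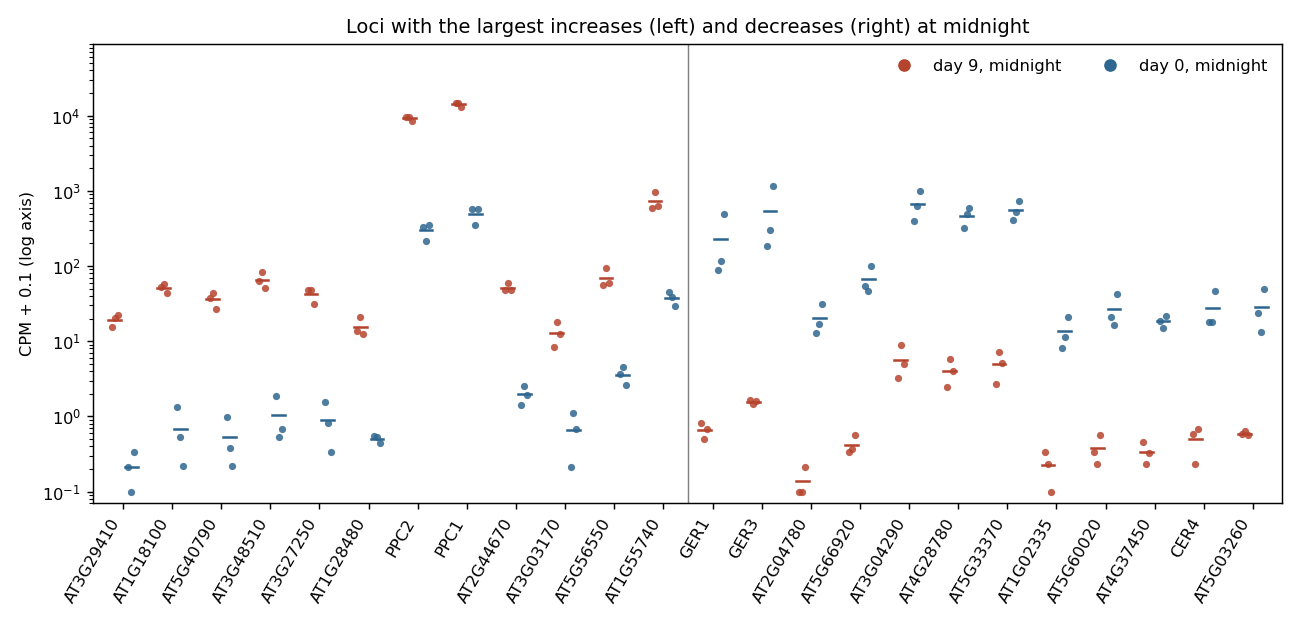
CPM plus 0.1 on a log axis for the 12 loci with the largest increases (left) and the 12 with the largest decreases (right) at midnight, with each point a library, each short line a group mean, and day 9 left of day 0. Every locus shows day 9 and day 0 libraries apart, as the rule for choosing them required.

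Among the 12 largest decreases, germin-like protein 1 (GER1) had 0.716, 0.402 and 0.575 CPM on day 9, against 87.2, 117 and 487 CPM on day 0, and germin 3 (GER3) had 1.55, 1.34 and 1.49 CPM on day 9, against 183, 298 and 1155 CPM on day 0. Germins are secreted proteins of the cell wall. All day 9 values were below all day 0 values, as the naming rule required, but replicate 3 of day 0 was several times above the other day 0 libraries. The log2 fold changes were -8.62 and -8.52 (SE 0.90 and 0.82, adjusted p = 4.7e-08 and 1.5e-08), and without that library they were -7.44 and -7.34. A further germin-like locus, AT1G02335, had 3 counts over the 3 day 9 libraries and 332 over the 3 day 0 libraries, so that it was lower on day 9 by a factor of 110.1 (exact 95% counting interval 37.3 to 536).

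Arabinogalactan proteins are glycoproteins of the cell wall, and 2 of them are among the 12. AT2G04780, a fasciclin-like one, had 1 count over the 3 day 9 libraries and 499 over the 3 day 0 libraries, and was lower by a factor of 496 (exact 95% counting interval 88.7 to 19640). AT4G37450, arabinogalactan protein 18, had 0.358, 0.134 and 0.23 CPM on day 9 and 18.5, 14.9 and 21.8 CPM on day 0. SKU5 SIMILAR 17 (AT5G66920), of a family of wall-bound copper-protein relatives, had 0.239, 0.268 and 0.46 CPM on day 9 and 53.9, 46.8 and 98.6 CPM on day 0. Laccases, which oxidise lignin precursors, also appear here: laccase 17 (AT5G60020) changed by -6.45 on the log2 scale and laccase 11 (AT5G03260) by -5.82, which is -5.18 without replicate 3 of day 0.

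GDSL-type lipases, a large family with members that assemble cutin, make up 3 of the 12 largest decreases. Li-tolerant lipase 1 (AT3G04290) had 3.1, 8.85 and 4.83 CPM on day 9 and 401, 623 and 1005 CPM on day 0 (log2 fold change -6.93, SE 0.85, adjusted p = 5.3e-07). AT4G28780 and AT5G33370 changed by -6.89 and -6.82. The remaining locus, CER4, an acyl-CoA reductase that makes the primary alcohols of leaf wax, had 0.477, 0.134 and 0.575 CPM on day 9, against 17.7, 17.8 and 46.4 CPM on day 0. Its log2 fold change was -6.01, and -5.39 without replicate 3 of day 0.

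In the nocturnal carboxylation step, PPC1, PPC2, PPCK1 and PPCK2 rose, and the further PEPC locus PPC4 was not called (log2 change -0.65). PPC1, which codes for PEPC, had 14766, 14870.5 and 13103 CPM on day 9 and 572, 348 and 565 CPM on day 0, and PPC2, a close relative, had 9640.2, 9559.5 and 8404 CPM on day 9 and 335, 218 and 357 CPM on day 0. Their combined share of all counts was 2.77%, 2.515% and 2.387% in the day 9 libraries, against 0.121%, 0.068% and 0.107% in the day 0 libraries. The log2 fold changes were 4.85 (SE 0.35, adjusted p = 1.7e-11) and 4.92 (SE 0.32, adjusted p = 2.4e-12). As the 2 proteins are close relatives, their reads may come from fewer genes of Talinum. In the authors' deposited table the largest PPC1 contig had 7638 RPM on day 9 and 66.3 RPM on day 0. The largest PPC2 contig had 641 RPM on day 9 and 358 RPM on day 0, a log2 change of 0.96. Of the 15 tested members of the CAM carboxylation list, 7 rose and 0 fell. Without replicate 1 of day 0 or replicate 2 of day 9, 4 rose, and without replicate 3 of day 0, 2 fell, the carbonic anhydrases BCA5 and BCA6. PPC4 was called lower without replicate 1 of day 0, at -1.04, or without replicate 3 of day 9, at -1.38. The remaining risers beyond PPC1 and PPC2 were the PEPC kinases PPCK1 and PPCK2 at 2.57 and 2.14, and 3 malate dehydrogenases (pMDH1, pMDH2 and NADP-MDH) at 0.67, 0.65 and 0.41. The calls of pMDH1 and pMDH2 were lost without replicate 1 of day 0 or replicate 2 of day 9, and that of NADP-MDH without any library but replicate 2 of day 0. The median of the list was 0.13 on the log2 scale, against 0.01 over all loci.

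The decarboxylation and transport list was split, with 6 of 24 tested members higher and 8 lower, and a median of -0.11. These shares are close to the 23.2% and 25.4% of all loci. PPDK, which regenerates PEP from pyruvate, had 15974, 18355 and 16302 CPM on day 9 and 2457, 1564 and 710.0 CPM on day 0, and BASS2, a plastid pyruvate carrier, had 372, 446 and 318 CPM on day 9 and 78.98, 91.5 and 89.02 CPM on day 0. NADP-ME1, NADP-ME2 and NADP-ME4, which decarboxylate malate, changed by 0.78, 0.79 and 0.86, and the tonoplast malate channel ALMT6 by 0.45, a call lost without replicate 1 or 2 of day 0 or replicate 2 of day 9. The lower group held the PEP/phosphate translocators PPT1 (-1.21) and PPT2 (-3.02), the aminotransferases ASP1 (-1.23), ASP5 (-0.59) and ALAAT1 (-0.38), NAD-ME2 (-0.42), and the mitochondrial carriers DIC1 (-1.16) and DIC3 (-1.66). The call of ASP5 was lost without replicate 2 of day 0 or replicate 1 of day 9, and that of DIC1 without replicate 1 or 2 of day 0 or replicate 2 of day 9. DIC3 moved to -2.28 without replicate 1 of day 9.

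Among the phosphofructokinases, the enzymes that commit sugar phosphates to glycolysis, 4 loci rose. PFK3 had 448, 442 and 445 CPM on day 9 and 41.2, 34.7 and 27.6 CPM on day 0 (log2 fold change 3.69, SE 0.22, adjusted p = 8.7e-13). PFK1 had 411, 392 and 374 CPM on day 9 and 34.9, 27.9 and 24.2 CPM on day 0, PFK6 had 525, 502 and 479.5 CPM on day 9 and 40.9, 28.6 and 26.2 CPM on day 0, and PFK4 had 96.2, 87.00 and 91.5 CPM on day 9 and 5.9, 5.12 and 4.96 CPM on day 0. Their log2 fold changes were 3.76, 3.97 and 4.1. Since the 4 proteins are similar, their reads may come from fewer genes of Talinum. In the authors' deposited table the PFK6 contig with at least 5 RPM had 8.33 RPM on day 9 and 7.33 RPM on day 0, a log2 change of 0.33. PFK5, another member of the family, fell, at 21.01, 23.7 and 22.4 CPM on day 9 and 42.8, 45.4 and 37.5 CPM on day 0. In the glycolysis list 8 of 21 tested members rose and 4 fell, 7 without replicate 1 of day 9, with a median of 0.34. With all libraries the share that rose was above the 23.2% of all loci, and the share that fell was below their 25.4%.

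**Figure D2:**
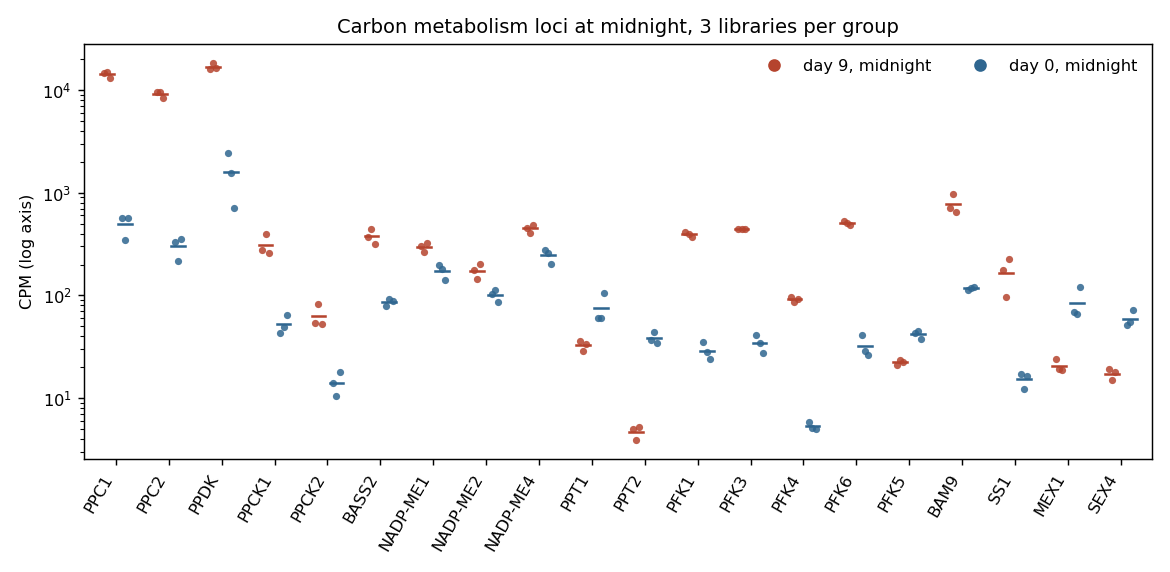
CPM on a log axis in each library for 20 carbon metabolism loci at midnight, with points for libraries, short lines for group means, and day 9 left of day 0. PPC1, PPC2, PPDK, the PFK genes, BAM9 and SS1 stand above day 0 on day 9, while PPT1, PPT2, PFK5, MEX1 and SEX4 stand below.

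Starch breakdown genes fell more often than they rose at midnight. Of the 27 tested members of the starch degradation list, 13 fell and 3 rose, with a median log2 change of -0.50. Over all loci 25.4% fell and 23.2% rose. Without replicate 2 of day 0, replicate 1 of day 9 or replicate 2 of day 9, 9 members of the list fell. BAM3, a plastid beta-amylase that releases maltose, had 187, 351 and 222 CPM on day 9, against 543, 748 and 906 CPM on day 0 (log2 fold change -1.53, SE 0.34, adjusted p = 0.00062). The debranching enzyme ISA3 had 49.4, 39.4 and 47.7 CPM on day 9 and 116, 88.7 and 108 CPM on day 0, and the cytosolic phosphorylase PHS2 had 289, 228 and 264 CPM on day 9 and 905, 730.2 and 684 CPM on day 0. MEX1, the maltose exporter, and SEX4, a glucan phosphatase, changed by -2.04 and -1.77. The member that rose most was BAM9, a beta-amylase that lacks catalytic activity in Arabidopsis, with 713, 966 and 642 CPM on day 9 and 114, 117 and 121 CPM on day 0 (log2 fold change 2.72, adjusted p = 1.2e-11). The alpha-amylases AMY3 and AMY2 were the other 2 that rose, by 0.87 and 1.11. The call of AMY2 was lost without replicate 2 or 3 of day 0 or replicate 1 or 2 of day 9.

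In starch synthesis 5 of 17 tested members were higher and 6 lower, shares not far above the 23.2% and 25.4% of all loci. Starch synthase 1 (SS1) had 179, 97.3 and 225 CPM on day 9 and 17.38, 12.2 and 16.4 CPM on day 0, which is a log2 fold change of 3.44, the largest in the list. SS4, which initiates granules, changed by 0.7, and PGM1, the plastid phosphoglucomutase, by -1.65. Sucrose and sugar transport held 10 lower and 4 higher of 20 tested, and 6 fell without replicate 3 of day 0, replicate 1 of day 9 or replicate 3 of day 9. With all libraries the higher share was below the 23.2% of all loci, and the lower share was above their 25.4%. In this list the sucrose-phosphate synthase SPS1F had 98.2, 126 and 115 CPM on day 9 and 302, 224 and 221 CPM on day 0. The vacuolar sugar carrier SWEET16 changed by 1.43. Of 17 tested trehalose, raffinose and inositol genes 9 rose and 3 fell, with a median of 0.38. SIP2, which hydrolyses raffinose, had 4282, 5355 and 4486 CPM on day 9 and 1488, 1371 and 756 CPM on day 0, GOLS3, a galactinol synthase, changed by 2.14 and MIOX1, a myo-inositol oxygenase, by 3.76.

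Genes of the light reactions and of carbon fixation were listed apart. Of 28 tested photosystem and light-harvesting members, 13 fell and 0 rose, with a median of -0.55, and 2 rose without replicate 3 of day 0. LHCA3, an antenna protein of photosystem I, had 37.2, 10.6 and 18.3 CPM on day 9 and 232, 112 and 224 CPM on day 0, and its log2 fold change of -3.1 was -3.71 without replicate 1 of day 9. PSBY, a small photosystem II protein, had 44.04, 52.1 and 41.4 CPM on day 9, against 219.9, 209.7 and 300.1 CPM on day 0 (log2 fold change -2.41, SE 0.27, adjusted p = 6.1e-08). In the Calvin-Benson cycle 5 of 17 tested members rose and 0 fell, with a median of 0.18, and 2 rose without replicate 1 of day 0 and 3 without replicate 2 of day 9. The share of 5 in 17 is not far from the 23.2% of all loci that rose. Rubisco activase (RCA), the locus with the most counts in day 9 leaves at midnight, had 30787, 40441 and 33636 CPM on day 9 and 16150.1, 18434 and 15618 CPM on day 0. The RCA groups do not overlap, and the log2 fold change was 1.06 (SE 0.30, adjusted p = 0.0045).

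The 2 small-subunit loci of Rubisco, RBCS1A and RBCS3B, which code for leaf proteins, are also among the 10 loci with the most counts and were not called, with log2 changes of -0.29 and -0.25. FBA1, a plastid aldolase, changed by 1.06. In the photorespiration list 3 of 15 tested members rose (HPR1 by 0.86, AGT1 by 0.83 and GGT1 by 0.57) and 0 fell, a share below the 23.2% of all loci. Without replicate 1 of day 0, 1 fell, and without replicate 2 of day 9, 1 rose, as the calls of AGT1 and GGT1 were lost. That of GGT1 was also lost without replicate 1 of day 0. Catalase 2 (CAT2) and metallothionein 3 (AT3G15353), also among those 10 loci, changed by 0.56 and -0.42 and were not called. For chlorophyll, the synthesis list had 2 higher and 1 lower of 16 tested, again below the shares of all loci, with 5 higher without replicate 3 of day 0 and 1 higher without replicate 1 or 2 of day 0 or replicate 2 of day 9. The call of the lower member was lost without replicate 3 of day 0, replicate 1 of day 9 or replicate 3 of day 9. HEMC, an early enzyme of the tetrapyrrole path, had 420.4, 419.9 and 443 CPM on day 9 and 117, 155 and 235 CPM on day 0. The breakdown enzyme PPH, a pheophytinase, had 3.34, 4.02 and 3.45 CPM on day 9, against 47.2, 33.4 and 16.1 CPM on day 0 (log2 fold change -3.16), while chlorophyllase 2 (CLH2) had 197, 224 and 190.0 CPM on day 9 and 64.6, 74.7 and 52.8 CPM on day 0.

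Abscisic acid signalling genes rose more often than they fell. Of 21 tested members of that list 11 rose and 5 fell, with a median of 1.04, and 3 fell without replicate 2 of day 0, replicate 1 of day 9 or replicate 3 of day 9. The phosphatase HAB2, a brake on the pathway, had 91.9, 110.3 and 95.1 CPM on day 9 and 50.5, 46.7 and 26.6 CPM on day 0, and the transcription factor ABF3 had 40.8, 82.7 and 49.4 CPM on day 9 and 26.5, 21.4 and 14.99 CPM on day 0. The receptors PYR1 (-0.88), PYL2 (-1.09) and PYL9 (-0.71) were among the members that fell, though the call of PYL9 was lost without replicate 2 of day 0, replicate 1 of day 9 or replicate 3 of day 9. In abscisic acid synthesis and turnover 5 of 15 tested rose and 3 fell, 5 without replicate 2 of day 0. With all libraries these shares were not far from the 23.2% and 25.4% of all loci. NCED3, which performs the rate-setting cleavage of synthesis, had 23.99, 35.9 and 21.1 CPM on day 9 and 13.03, 7.54 and 3.57 CPM on day 0. CYP707A2, which inactivates the hormone, had 2.27, 1.47 and 1.49 CPM on day 9 and 13.1, 10.4 and 12.5 CPM on day 0 (log2 fold change -2.77, adjusted p = 1.4e-06).

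Few drought markers were tested, with 13 of 23 list members present in the table and 8 of those past the filter on low counts. Of these 8, ATHB7 and COR47 rose and 2 fell, shares near the 23.2% and 25.4% of all loci. ATHB7, a homeobox factor that responds to abscisic acid, had 287, 362 and 267 CPM on day 9 and 37.5, 33.2 and 20.6 CPM on day 0 (log2 fold change 3.33, SE 0.29, adjusted p = 8.4e-10). COR47, a dehydrin, changed by 1.9, and LEA14 and RD22, which code for a late embryogenesis protein and a BURP-domain protein, changed by -1.29 and -1.36 and were called lower. Without replicate 1 or 2 of day 0, 4 members rose, and without replicate 3 of day 9, 0 fell. For proline, P5CS1, which makes it, had 45.5, 33.2 and 36.7 CPM on day 9 and 66.8, 61.3 and 75.6 CPM on day 0, while PRODH1, which degrades it, had 90.4, 109 and 92.2 CPM on day 9 and 26.1, 16.8 and 3.11 CPM on day 0. Replicate 3 of day 0 was low for PRODH1, which adds to its log2 change of 2.66. The change was 3.26 without replicate 1 of day 0, the day 0 library with the highest level. P5CDH, the next enzyme of degradation, changed by 1.21.

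Among guard cell markers, the potassium channel GORK, which lets potassium out during stomatal closure, had 47.03, 92.1 and 49.1 CPM on day 9 and 6.8, 6.97 and 6.0 CPM on day 0. KAT2, an inward channel, had 8.71, 8.31 and 10.7 CPM on day 9 and 19.05, 16.2 and 25.3 CPM on day 0. Of 8 guard cell markers in the table, GORK rose, KAT2, HT1 and ALMT12 fell, and 4 were not called. The share that rose was below the 23.2% of all loci, and the share that fell was above their 25.4%. The call of ALMT12 was lost without replicate 3 of day 0 or replicate 1 of day 9. The summed level of the list ranged from 90.8 to 133 CPM in day 9 leaves and from 63.9 to 89.9 CPM in day 0 leaves. GORK makes up much of the day 9 sum, while the median log2 change of the list was -0.60. The part of guard cell number in the GORK and KAT2 values was not tested. None of the 8 was at 0 in any of the 6 libraries.

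In the lists of GDSL-type lipases, of wax and cutin genes and of cellulose synthases most tested members fell. Of 41 tested GDSL-type lipases, 33 fell and 3 rose (1 without replicate 1 of day 0), with a median of -2.37. AT3G16370, one of that family, had 17.43, 16.2 and 15.7 CPM on day 9 and 244, 290.4 and 213 CPM on day 0 (log2 fold change -3.92, adjusted p = 3.5e-13), and AT5G14450, one of the 3 higher, had 103, 131 and 105 CPM on day 9 and 33.98, 44.98 and 27.7 CPM on day 0. In the wax and cutin list 13 of 20 tested fell and 2 rose, and 1 rose without any library but replicate 1 of day 0. LACS2, which activates fatty acids for cutin, had 7.04, 7.78 and 10.1 CPM on day 9 and 138, 149 and 156 CPM on day 0 (log2 fold change -4.15, SE 0.20, adjusted p = 3.5e-14). CYP86A4, a fatty acid hydroxylase, changed by -4.27 and DCR, an acyltransferase of cutin, by -1.87, while CER3, which makes wax alkanes, had 91.9, 52.1 and 82.7 CPM on day 9 and 33.98, 33.2 and 36.2 CPM on day 0.

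All 4 tested cellulose synthases fell. CESA5 had 53.00, 54.8 and 50.1 CPM on day 9 and 361, 314 and 398 CPM on day 0 (log2 fold change -2.76, adjusted p = 2.2e-13). CESA4, CESA7 and CESA8, of the secondary wall, changed by -1.86, -1.75 and -1.89. The same 3 are also vascular markers, so the next counts overlap with these. Of 11 vascular markers 8 fell (5 without replicate 1 of day 9), SWEET11 rose, while its contigs in the authors' deposited table were divided, and their summed level was 576, 597 and 622 CPM on day 9 and 975, 1001 and 1145 CPM on day 0, low to high. No vascular marker was at 0 in any library, and the part of a smaller share of vascular tissue in these changes was not tested. Expansins, which loosen walls, were split, 6 lower and 3 higher of 13 tested. The higher share was near the 23.2% of all loci, and the lower share was above their 25.4%. EXPA5 had 0.716, 1.47 and 1.72 CPM on day 9 and 19.2, 29.04 and 37.5 CPM on day 0, and EXPA15 had 35.5, 75.3 and 31.9 CPM on day 9 and 12.3, 13.5 and 20.3 CPM on day 0. In the authors' deposited table the 1 contig of EXPA15 with at least 5 RPM goes the other way, at 5.33 RPM on day 9 and 44 RPM on day 0. EXPA2, another that rose, changed by 1.5 and was not called without replicate 1 or 2 of day 0 or replicate 2 of day 9.

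Of 19 tested genes of cell division and DNA replication, 14 fell and 0 rose, with a median of -2.41. MCM2, part of the replicative helicase, had 0.477, 0.402 and 0.46 CPM on day 9 and 5.46, 7.26 and 17.64 CPM on day 0, a log2 fold change of -4.45, or -3.76 without replicate 3 of day 0. CYCD3;1, a cyclin of the entry into division, had 0.477, 0.67 and 0.689 CPM on day 9 and 3.68, 4.7 and 5.77 CPM on day 0. Histones and tubulins with kinesins, listed by their descriptions, had 12 lower and 3 higher of 28 tested and 17 lower and 5 higher of 29 tested. Of the tubulins and kinesins, 2 were higher without replicate 1 of day 0. The histone count of fallers was 7 without replicate 3 of day 0, and 0 histones rose without replicate 1 of day 0 or replicate 2 of day 9. Beta-6 tubulin (AT5G12250) had 82.2, 95.2 and 79.6 CPM on day 9 and 248, 275 and 277 CPM on day 0. Aquaporins, the water channels, had 10 lower and 0 higher of 15 tested, with a median of -1.04. TIP1;1 had 138, 109 and 114 CPM on day 9 and 544, 762 and 1188 CPM on day 0, PIP2;2 had 69.1, 89.7 and 74.1 CPM on day 9 and 208, 208 and 339 CPM on day 0, and TIP2;2 changed by -4.38.

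Phenylpropanoid and flavonoid enzymes fell in 9 of 11 tested members and rose in 0, with a median of -2.04. C4H, the second enzyme of the phenylpropanoid path, had 36.6, 27.2 and 36.5 CPM on day 9 and 164, 133 and 237 CPM on day 0 (log2 fold change -2.41, SE 0.24, adjusted p = 8.8e-09). PAL1, the first, had 58.2, 48.9 and 59.5 CPM on day 9 and 224, 187 and 274 CPM on day 0, and 4CL1, the third, changed by -2.81. Nitrate reductase fell in both loci, which share much of their sequence. NIA1 had 6.92, 4.02 and 4.94 CPM on day 9 and 43.4, 46.4 and 231 CPM on day 0, where replicate 3 of day 0 was high. The log2 fold changes of NIA1 and NIA2 were -4.33 and -4.23, and without that library they were -3.07 and -3.03. In the whole nitrogen list 6 of 16 tested fell, 3 without replicate 3 of day 9, and 2 rose, 4 without replicate 3 of day 0 and 0 without replicate 2 of day 0 or replicate 2 of day 9. With all libraries the share that rose was below the 23.2% of all loci, and the share that fell was above their 25.4%.

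Enzymes that protect against stress were divided. Of 23 tested antioxidant enzymes 10 fell and 3 rose, with GR1, a glutathione reductase, at 35.6, 25.7 and 31.8 CPM on day 9 and 96.5, 102 and 93.4 CPM on day 0, and MDAR4, a monodehydroascorbate reductase, at 524, 774 and 591 CPM on day 9 and 225, 308 and 270.1 CPM on day 0. Heat shock genes and chaperones had 6 higher and 6 lower of 24 tested, shares near those of all loci. The counts were 3 and 3 without replicate 1 of day 0. HSFA2, a transcription factor of the heat response, had 20.3, 40.6 and 25.7 CPM on day 9 and 4.9, 5.27 and 3.92 CPM on day 0 (log2 fold change 2.62, SE 0.22, adjusted p = 3.5e-10). HSP101, a disaggregase, had 1.19, 0.536 and 0.919 CPM on day 9 and 12.4, 10.2 and 11.3 CPM on day 0 (log2 fold change -3.64, SE 0.33, adjusted p = 1.7e-09). In the clock list 8 of 26 tested rose, 5 without replicate 2 of day 9, and 5 fell, shares not far from those of all loci. The evening gene TOC1 had 111, 136 and 115 CPM on day 9 and 57.4, 58.6 and 47.97 CPM on day 0, and ELF4 had 1.07, 1.74 and 1.95 CPM on day 9 and 10.03, 7.97 and 5.77 CPM on day 0. The tricarboxylic acid cycle and alternative respiration list had 8 lower and 1 higher of 15 tested, a call lost without any library but replicate 3 of day 0. Fumarase 1 (FUM1) changed by -0.98.

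For ribosomal proteins the count depends on 1 library. Of 71 tested loci whose description contains "ribosomal protein", 43 rose and 2 fell, with a median of 0.59. When replicate 1 of day 0 was left out, 15 rose, and when replicate 3 of day 0 was left out, 47 rose. The count of fallers was 1 without any library but replicate 1 of day 0 or replicate 3 of day 9. Replicate 1 of day 0 has the highest scaling factor of the 6 libraries, 1.334, and whether that moves the count was not tested. AT3G17170, a ribosomal protein S6 family locus, had 156, 166 and 151 CPM on day 9 and 36.3, 47.1 and 51.9 CPM on day 0. AT3G10950, a zinc-binding ribosomal protein, had 139, 128 and 153 CPM on day 9 and 55.03, 79.9 and 67.1 CPM on day 0. With capital letters in the description accepted as well, a choice made after these counts were seen, 135 of 261 tested rose and 5 fell, with a median of 0.53, with 55 higher without replicate 1 of day 0 and 1 lower without replicate 2 of day 0.

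**Figure D3:**
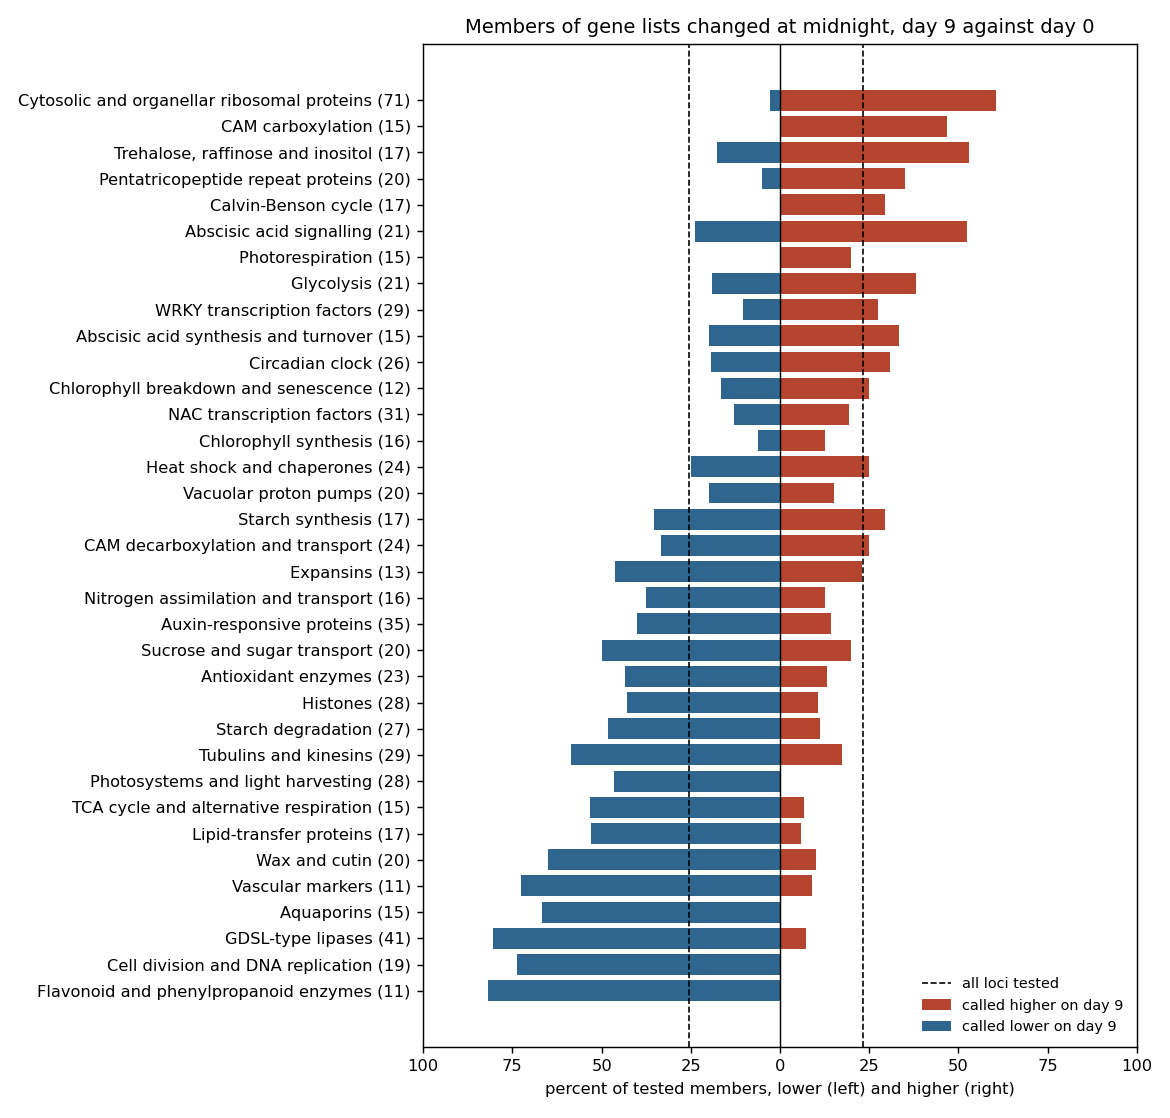
Share of tested members called in each gene list with at least 10 tested, ordered by the higher minus the lower share, with higher on day 9 to the right and lower to the left, the number tested in brackets and dashed lines at the shares over all loci, 23.2% and 25.4%. Flavonoid and phenylpropanoid enzymes stand last in this order, with 9 of 11 lower, and ribosomal proteins first, with 43 of 71 higher.

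The night response of a day 9 leaf was set beside its day response, from midday libraries of the same stages. The midday comparison shares no library with the midnight one, and the difference between the responses was tested as an interaction in the same fit. At midday 6247 of 14052 loci were called (44.5%), 3291 higher (23.4%) and 2956 lower (21.0%). The responses differed at 3410 loci (24.3%), with the midnight change above the midday change at 1408 (10%) and below it at 2002 (14.2%). Under upper quartile scaling the same total was 3409, but 1745 were above and 1664 below. Loci called higher at midnight and lower at midday numbered 159, and 253 were called lower at midnight and higher at midday.

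Of the 6 loci with the largest positive difference, 4 are on the expansin list, and AT5G56320 is described as expansin A14. EXPA2, EXPA8, EXPA10 and EXPA15 had log2 changes of 1.5, 1.28, 0.93 and 1.62 at midnight and -3.69, -3.8, -3.44 and -2.71 at midday. Among the 4, EXPA2 and EXPA15 were called at midnight, EXPA8 and EXPA10 were not, and these similar proteins may share reads. AT5G56320 had 53.6, 102 and 44.7 CPM at midnight on day 9 and 6.46, 8.83 and 10.1 CPM at midnight on day 0, and its change was 2.97 at midnight and -3.0 at midday (difference 5.97, SE 0.83, adjusted p = 1.9e-05). Of the 13 tested expansins, the difference was called positive in 7 and negative in 2. AT1G28480, the thioredoxin-superfamily locus above, changed by 5.2 at midnight and 0.26 at midday.

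Among the 27 tested starch degradation genes the midnight change was called below the midday change in 19 and above it in 1. At midday 19 of them rose and 0 fell. BAM3 changed by -1.53 at midnight and 1.52 at midday (difference -3.05, SE 0.49, adjusted p = 7.2e-05), and ISA3 by -1.2 and 1.47. BAM5 and BAM6, similar beta-amylases that may share reads, changed by -1.19 and -1.37 at midnight and 4.11 and 4.15 at midday. BAM5 was not called at midnight, and the midnight call of BAM6 was lost without replicate 2 of day 0 or any day 9 library. BAM9 was the 1 above, with 2.72 at midnight and 0.88 at midday. The PFK loci changed more at midnight, by 2.84, 3.02, 3.31 and 3.26 for PFK1, PFK3, PFK4 and PFK6 as log2 differences, and PPC1 and PPC2 by 2.72 and 2.7.

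The remaining loci with the largest negative differences were AT3G12500, a basic chitinase, AT1G52720, which has no description, ELIP1, an early light-induced protein, and AT5G19800, a hydroxyproline-rich glycoprotein. AT3G12500 changed by -3.91 at midnight (-3.26 without replicate 3 of day 0) and 2.14 at midday, and AT5G19800 by -3.59 (-2.72 without the same library) and 1.75. ELIP1 had 42.1, 21.6 and 32.6 CPM at midnight on day 9 and 19.9, 6.69 and 8.42 CPM at midnight on day 0, and it changed by 1.45 at midnight, where the call was lost without any library but replicate 1 of day 0, and by 7.0 at midday. P5CS1 changed by -0.82 at midnight and 2.73 at midday. Rubisco activase and BASS2 had positive differences. RCA changed by 1.06 at midnight and -0.94 at midday, and BASS2 by 2.13 at midnight and -0.45 at midday, which was not called.

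**Figure D4:**
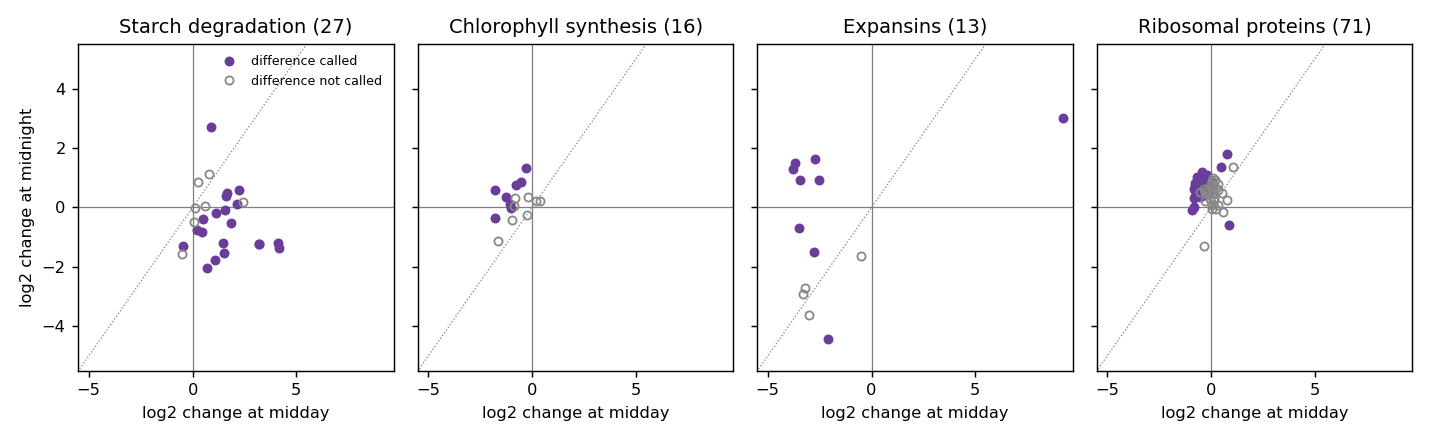
Log2 change on day 9 against day 0 at midnight (vertical axis) and at midday (horizontal axis) for the tested members of 4 lists, filled where the difference between them was called and open where it was not. Most starch degradation members lie below the dotted line of equal change, where the midnight change is the lower of the pair, and most ribosomal members lie above it.

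Of the same 71 ribosomal protein loci, 6 rose and 21 fell at midday, with a median of -0.34, and the difference was positive in 40 and negative in 1. Their count of risers at midnight was 15 without replicate 1 of day 0. The counts of differences in the lists were not repeated with single libraries left out. Chlorophyll synthesis had 8 positive and 0 negative differences of 16 tested, and Calvin-Benson genes 7 and 0 of 17. Flavonoid and phenylpropanoid genes had 0 positive and 5 negative of 11.

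Day 4, day 12 and re-watered leaves at midnight share the day 0 libraries as their reference, so their values are given side by side without a further comparison. PPC1 averaged 495, 628, 14246, 13675 and 613 CPM on days 0, 4, 9 and 12 and after 2 days of re-watering. PFK4 averaged 5.33, 4.75, 91.6, 75.1 and 5.83 CPM in the same order, and BAM9 117, 119, 774, 1007 and 99.5 CPM. In each of the 3 genes the day 9 and day 12 means were above those of the other stages. GER3 averaged 545, 783, 1.46, 1.4 and 49.7 CPM, LACS2 148, 133, 8.31, 6.13 and 133 CPM, and CESA5 358, 287, 52.6, 55.5 and 251 CPM. AT1G55740 went on to 1962 CPM on day 12, against 732 CPM on day 9.

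**Figure D5:**
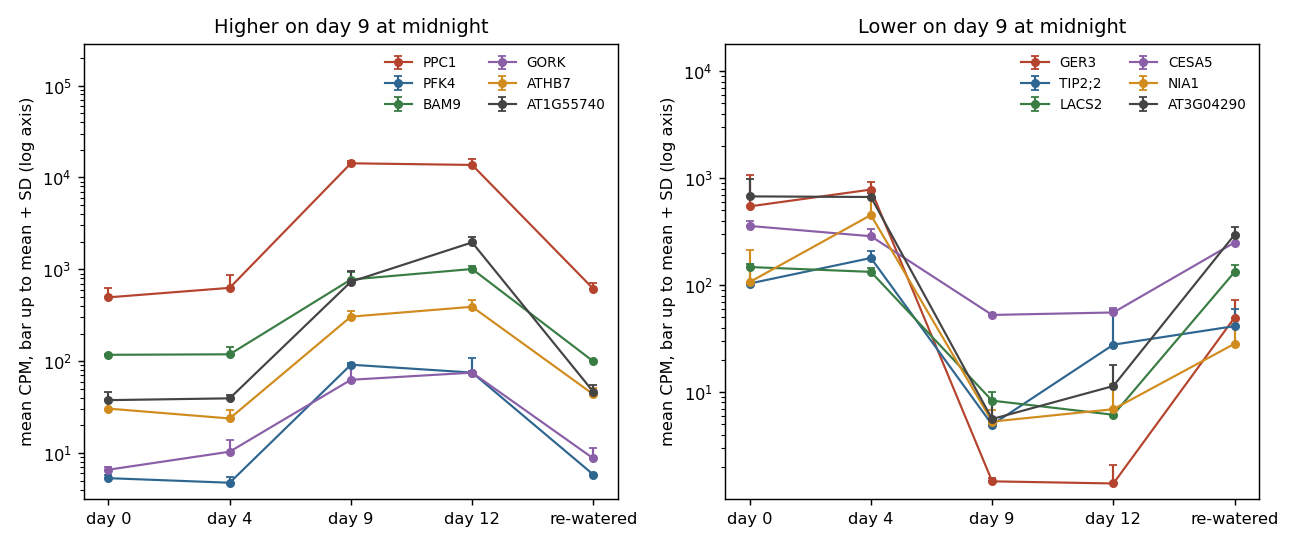
Mean CPM on a log axis at midnight on days 0, 4, 9 and 12 and after re-watering, with bars up to the mean plus the SD of 3 libraries, for 6 loci higher and 6 lower on day 9. PPC1 averages 14246 CPM on day 9 and 13675 CPM on day 12, and LACS2 averages 8.31 CPM on day 9 and 6.13 CPM on day 12.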

How the data were processed

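Leaf polyA RNA was sequenced in single reads of 150 bp with 12 libraries per lane, per the labels' protocols, and bases were called with CASAVA 1.8.2, per the submitters' processing notes. Per the file headers, the authors mapped reads with BLAT in protein space to Arabidopsis TAIR10 proteins and kept the best match. The deposited table holds these raw read counts per locus, which were tested here. The log2 ratios and q-values that the authors deposited come from DESeq2, per the file headers. Assembled contigs have deposited RPM values, which are group means made by the authors. For the loci among the 24 largest changes that have such contigs, 42 of 44 contigs with at least 5 RPM in a group changed in the direction of their locus. These means are of the same groups, and the loci were chosen for large changes, so this is no independent check. Other named loci had contigs in both directions, among them PPCK1, SS4 and NADP-ME4. Contigs that go against a locus described are given beside it where none went with it.

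Counts of all 30 single-end libraries were fitted with edgeR 4.0.16 (R 4.3.3): filterByExpr, TMM factors, 1 coefficient for each of 10 groups, robust quasi-likelihood test, 20 residual degrees of freedom, biological coefficient of variation 0.173. This left 14052 of 21869 loci. Tests are two-sided, with Benjamini-Hochberg adjusted p under 0.05 over all loci tested. Each SE was derived from the test, as the absolute log2 change divided by the square root of its F statistic, and was not fitted directly. With 3 libraries against 3, p-values rest on the model across loci. The script was tested on simulated counts. The 6 paired-end libraries were not analysed here. No sequences were used.

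Genes named were the 12 largest increases and 12 largest decreases (called, at least 10 CPM in a group, no overlap), up to 4 called members of each list in each direction, other list members as values, the 10 most abundant loci on day 9, the 6 largest differences each way between midnight and midday, and all called CAM members. The lists (34 fixed, 671 loci, 520 in the table, 506 tested, and 10 by words in the description) and the comparison were chosen with earlier results of these data known. The words were matched in a fixed letter case, so family members described in another case are left out. Alternatives tried were DESeq2 1.42.0, limma-trend (limma 3.58.1), 2 other scalings (RLE, upper quartile), other filters and thresholds, a fit of the compared groups alone, a block for replicate number, and leaving out single libraries. Accepting capital letters in the ribosomal list was chosen after seeing the data.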

Additional observations from a re-analysis of the deposited data

Results flagged for a closer look

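The response to 9 days of drought was tested for a difference between midnight and midday, and 3410 loci passed, among them the 32 loci given here. Each value here is the midnight log2 change minus the midday log2 change, with the edgeR adjusted p of that difference under 0.05. No cause was tested.

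Positive differences were found in carbon metabolism for PPC1 (2.72), PPC2 (2.7), PFK1 (2.84), PFK3 (3.02), PFK4 (3.31), PFK6 (3.26), BASS2 (2.58), RCA (2.00) and BAM9 (1.85). In the cell wall group they were found for AT5G56320 (5.97), EXPA2 (5.19), EXPA8 (5.08), EXPA10 (4.37) and EXPA15 (4.33). Without replicate 2 of day 9 at midday, the values of AT5G56320, EXPA8, EXPA10 and EXPA15 were 6.69, 5.82, 5.12 and 5.09. The thioredoxin-superfamily locus AT1G28480 stood at 4.94, or 4.2 without replicate 2 of day 0 at midday, and HSFA2, the heat shock factor, at 2.4.

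Negative differences were found for the starch genes BAM6 (-5.52), BAM5 (-5.30), BAM3 (-3.05), SEX4 (-2.87), MEX1 (-2.73) and ISA3 (-2.67). The chitinase locus AT3G12500 had -6.05, which was -5.40 without replicate 3 of day 0 at midnight and -4.81 without replicate 1 of day 9 at midday. AT5G19800, a hydroxyproline-rich glycoprotein, had -5.33, which was -4.47 and -3.97 without the same 2 libraries. ELIP1 had -5.56, or -4.93 without replicate 1 of day 0 at midnight, CER4 had -5.21, or -4.58 without replicate 3 of day 0 at midnight, and DIC3 had -5.23, or -5.85 without replicate 1 of day 9 at midnight. AT1G52720 had -5.63, HSP101 -3.73, PPH -3.65, P5CS1 -3.55 and the chaperone CLPB3 -1.83. All 32 differences were still called when any 1 library of the 4 groups was left out.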

How the results depend on the processing

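The 6833 loci called at midnight became 6778 to 6840 under DESeq2, RLE or upper quartile scaling and no filter, 6263 with at least 5 CPM in 3 libraries, 6625 with limma-trend, 5526 with only the groups compared, 5027 at an adjusted p under 0.01, and 5893 to 6359 with 1 library left out. With a log2 change of at least 1 also required, 3098 were called, 1062 higher and 2036 lower. The 3410 loci whose response differed became 1883 (734 above and 1149 below) at an adjusted p under 0.01, 2028 (773 and 1255) with a log2 difference of at least 1, and 2857 to 3507 with 1 library left out. With only the groups compared, the response differed at 2367 loci (946 above and 1421 below). Upper quartile scaling gave 3409, of which 1745 were above and 1664 below, with the median of all differences moved by 0.096. The replicate numbers did not pair libraries: same-numbered libraries of day 9 and day 0 correlated at 0.0155, 0.0301 and 0.0148 after removal of the group means, under the 0.1 required. With the replicate number as a block 6800 and 3338 loci were called. Of 367 called loci named or on the lists, 32 to 46 lost the call when 1 library was left out. Under DESeq2, limma-trend, RLE or upper quartile scaling, no filter and the block, 0 to 10 lost it. With only the groups compared, 37 of the 361 still tested lost it, and with at least 5 CPM in 3 libraries 2 of 354. The stricter thresholds were applied to counts and not to single loci. Of the 43 ribosomal protein loci that rose, 24 passed an adjusted p under 0.01 and 7 a log2 change of at least 1. Directions turned with a call for ENO1, 0.36 with all libraries and -0.93 to 0.71 with 1 library left out (lowest without replicate 3 of day 9), and GLT1, -0.02 with all and -0.35 to 0.64 with 1 left out (highest without replicate 3 of day 0). Neither was called with all libraries, and both were called in the other direction without the library named. The causes were not tested. At 5829721 to 7841559 counts per library, loci near 0.383 to 0.515 CPM are not reliably measured.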

Other observations

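Among gene families listed by words in their descriptions, 14 of 35 tested auxin-responsive loci fell and 5 rose (2 without replicate 2 of day 9), with a median log2 change of -1.01. AT2G24400, a SAUR-like protein of auxin-driven growth, had 0.955, 0.536 and 0.689 CPM on day 9 and 4.57, 7.83 and 7.5 CPM on day 0. Of 17 tested lipid-transfer loci, 9 fell and 1 rose, a call lost without replicate 3 of day 0 or replicate 1 or 2 of day 9. Of 20 tested pentatricopeptide repeat loci, which mostly act on organelle RNA, 7 rose and 1 fell. These 20 are the loci whose descriptions matched in letter case, and they need not be the whole family. Without replicate 3 of day 0 none of them fell, and without replicate 1 of day 0 or replicate 2 of day 9, 2 fell. AT2G30100 of that family had 72.8, 91.3 and 69.5 CPM on day 9 and 14.6, 15.1 and 15.7 CPM on day 0.

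Of 29 tested WRKY factors 8 rose, a share near that of all loci, and 3 fell, a share below it. Without replicate 3 of day 0, 3 of the WRKY factors rose, and without replicate 1 of day 9, 1 fell. AT4G11070, one of them, had 18.0, 24.3 and 17.5 CPM on day 9 and 4.23, 4.13 and 5.07 CPM on day 0. In the authors' deposited table its contig with at least 5 RPM had 15.3 RPM on day 9 and 12.7 RPM on day 0, a log2 change of 0.35. Of 31 tested NAC factors 6 rose and 4 fell, shares below those of all loci. NAC domain containing protein 83 (AT5G13180) had 182, 186 and 182 CPM on day 9 and 89.5, 68.5 and 53.5 CPM on day 0. Vacuolar proton pumps, which drive malate uptake, had 3 higher and 4 lower of 20 tested, 1 higher and 8 lower without replicate 1 of day 0, and 2 lower without replicate 2 of day 0. With all libraries both shares of the pumps were below those of all loci. The subunit VHA-c3 had a log2 change of 0.89 and VHA-F one of -0.64. Of 3 tested leucine-rich repeat receptor kinases 1 fell. The words were matched in letter case, so these 3 need not be the whole family. Of 3 tested epidermis markers GL2 was called, at -0.58, while in the authors' deposited table both of its contigs go the other way, the larger at 146 RPM on day 9 and 78.7 RPM on day 0. Of 2 tested defence markers LOX2 was called, at -1.13, which was -0.30 and not called without replicate 3 of day 0, and was also not called without replicate 2 of day 9.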
